A study of Rattus norvegicus with 18 samples.

Results

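The comparison described here is that of solvent control cells at 72 h with solvent control cells at 6 h. It follows what changed in kidney cells that received only dimethyl sulfoxide (DMSO) while they stayed in culture. Its members are the 3 arrays labelled as DMSO-treated cells at 72 h and the 3 labelled as DMSO-treated cells at 6 h, 6 of the 18 arrays of the series. All cells were NRK-52E, an established rat line that the labels describe as renal proximal tubular and give the strain Osborne-Mendel. Cells were grown in medium with 10% fetal calf serum until they covered the wells of 6-well plates. They then received either 0.1% DMSO alone or 1.65 µM aristolochic acid, a plant nephrotoxin, in 0.1% DMSO, for 6, 24 or 72 h (3 arrays for each agent and time). Every group, controls included, carried DMSO and was already confluent at the start. The series holds no cells without DMSO and no array from before DMSO was added, so time in solvent and time in culture cannot be told apart. Per the labels the 3 samples of each group are biological replicates. Whether any were grown on the same plate or day is not said, and the p-values therefore cover the variation among these samples only.

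Expression was measured on Affymetrix rat arrays. The values are deposited log2 levels made with GCRMA, a method that subtracts background by probe sequence and puts all arrays on one scale, so a difference of 1 is a 2-fold change. Weak probe sets pile up near log2 2 on this scale. A level below log2 4 is called near the floor here, and the size of a change that starts or ends there rests on how background was modelled. Of 14218 genes on the arrays, 9016 reached log2 4 on at least 3 arrays and were tested. The array medians lay between 4.11 and 4.16 in the DMSO 6 h group and between 4.12 and 4.13 in the DMSO 72 h group, and the number of arrays limits the precision. Arrays of the same group correlated at 0.997 or higher in both groups. The beta-actin control probe sets, whose 3′ minus 5′ difference reads RNA length, gave 1.15 ± 0.02 at 6 h and 1.35 ± 0.09 at 72 h (log2, SD, n = 3 each). These did not overlap (exact permutation test, two-sided p = 0.1, the smallest that 3 against 3 arrays allows). The same difference for Gapdh (p = 0.4), for hexokinase (p = 0.2) and the BioB spike-in level (p = 0.3) overlapped between the groups in the same exact test. The part of RNA length in the results below was not tested.

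Cells of the proximal tubule take up filtered salt, sugar, peptides and water across a brush border and burn fatty acids to power this transport. Cultured tubule lines keep only some of these features. A confluent epithelial layer generally slows its cell cycle through contact between neighbours, while serum growth factors and nutrients in the medium push the other way and are used up unless the medium is renewed. Cell cycle genes, sterol and fatty acid genes, clock genes, stress genes and junction genes are among the groups described below. The part of cell contact, serum or nutrients in their changes was not tested.

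The labelled cell type was checked against marker genes. Of 10 proximal tubule markers on the array, 2 reached log2 4 in either group, Aqp1 and Ggt1, each at 1 time only. Aqp1 had means of 2.08 at 6 h and 8.43 at 72 h, and Ggt1 of 5.86 and 3.50. The other 8, among them Lrp2, Cubn and Slc34a1 for uptake across the brush border, were near the floor at both times. Of 6 general kidney epithelium markers, Krt8 alone reached log2 4, and Epcam, Cdh1 and Cdh16 did not. Of 10 fibroblast and myofibroblast markers, 5 did: Col1a1, Col1a2, Col3a1, Postn and Acta2, whereas Pdgfra, Dcn and Lum did not. None of the 4 immune markers and none of the 5 markers of the loop, distal tubule and collecting duct reached log2 4. Tek alone of 4 endothelial markers and Wt1 alone of 2 podocyte markers did. By these markers the cells carried few proximal tubule features and several mesenchymal ones at both times. The log2 of the summed marker levels moved from a range of 6.56 to 6.78 at 6 h to 8.60 to 8.67 at 72 h for the proximal tubule list, where Aqp1 made up the rise. It moved from a range of 15.3 to 15.4 to one of 14.7 to 14.9 for the fibroblast list, and from 13.5 to 13.7 to a range of 12.6 to 12.8 for the kidney epithelium list, which was mainly Krt8. For the endothelial list, where Tek alone was above the floor, it moved from 5.07 to 5.28 to a range of 6.35 to 6.58. Fewer cells of a type and less RNA per cell cannot be told apart in such bulk samples.

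Most genes changed between 6 h and 72 h in solvent alone. Of the 9016 genes tested, 6086 passed the test (67.5%; limma on all 18 arrays, Benjamini-Hochberg adjusted p under 0.05). Of these, 2879 were higher at 72 h (31.9%) and 3207 were lower (35.6%). Changes of 2-fold or more were seen in 793 genes that rose (8.80%) and 858 that fell (9.52%). The median log2 change over all genes tested was -0.03, and the median size of a change among those that passed was 0.65. The 3 arrays at 72 h lay wholly above or below the 3 at 6 h for 6871 genes (76.2%). These shares are the background against which each gene group is read. At 24 h, 5297 genes already differed from 6 h (58.8%; 28.3% higher and 30.5% lower), and 3096 differed between 24 h and 72 h (34.3%; 17.2% higher and 17.1% lower). Both steps share arrays with the net comparison. In a principal component analysis of the 9 DMSO arrays the first component held 72.9% of the variance and put the 24 h arrays (12.0 to 13.2) between those at 6 h (-49.7 to -43.2) and 72 h (32.5 to 36.6). The second component held 16.5% and set the 24 h arrays (-24.2 to -20.8) apart from both.

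The largest increase was that of Aqp1, the water channel of the proximal tubule and thin descending limb. It stood at 2.10, 2.05 and 2.07 on the arrays at 6 h, at a mean of 3.21 at 24 h, and at 8.48, 8.39 and 8.43 at 72 h. The gene was at the floor at 6 h on every array and clearly expressed at 72 h on every array. Its log2 change was 6.36 ± 0.28 (SE; limma adjusted p = 6.9e-13), most of it after 24 h (5.22 against 1.14 before). The other probe set of Aqp1 went from a mean of 2.37 at 6 h to 6.47 at 72 h, a change of 4.09. Since both probe sets started at the floor, the size of the change rests on the background model. Pkhd1l1, which encodes a large membrane protein of the fibrocystin family, went from near the floor (2.75, 2.84 and 2.58) to 7.83, 7.60 and 7.73. Il33, an alarmin cytokine stored in the nucleus, read 2.89, 2.91 and 2.92 at 6 h and 6.81, 6.99 and 7.11 at 72 h. Il33 was still at the floor at 24 h (mean 3.02), and rose by 3.96 after it. Rtn1, an endoplasmic reticulum membrane protein, went from 5.70, 5.70 and 5.72 to 10.15, 10.17 and 10.33. Cgnl1 (paracingulin), a junction protein linked to the actin cytoskeleton, went from 5.86, 6.57 and 5.72 to 10.35, 10.36 and 10.42, a log2 change of 4.33 ± 0.18. Both were well above the floor at 6 h, and their groups did not overlap, which the rule that named them required.

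The other genes among the 15 largest increases gained between 3.52 and 4.44 log2 units. They included Fmod, a collagen-binding proteoglycan (3.96), Selenbp1, a selenium-binding methanethiol oxidase (3.84), Csgalnact1, an enzyme that starts chondroitin sulfate chains (3.83), and Cd55, which protects cells from complement (3.81). Mycn, a transcription factor of the Myc family, read 4.92, 4.98 and 4.32 at 6 h and 8.38, 8.68 and 8.25 at 72 h. The remaining ones were LOC100910558 (4.44), Zc3h6 (3.86), the clock output gene Dbp (3.63), the chemokine scavenger Ackr4 (3.53) and the AMP deaminase Ampd3 (3.52). All 15 passed the test with adjusted p of 4.4e-08 (Ackr4) or less, and the rule that named them required groups that did not overlap.

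Among the 15 largest decreases, Mfap4, a protein of elastic microfibrils, fell from 10.87, 10.32 and 10.72 to 5.72, 5.43 and 4.58, a log2 change of -5.39 ± 0.31 (limma adjusted p = 2.5e-11). Fbln2 (fibulin 2), which links basement membrane and elastic fibres, fell from 10.97, 10.98 and 11.14 to 6.29, 6.36 and 5.34. Col1a1, a chain of type I collagen, fell from 11.75, 11.60 and 11.53 to 7.82, 7.63 and 6.98. All 3 stayed above log2 4 at 72 h on every array. Gpc3, a membrane-anchored heparan sulfate proteoglycan, fell from 9.03, 8.95 and 8.39 to 3.60, 3.36 and 3.57, which is near the floor. Car3 (carbonic anhydrase 3) fell by 5.20 and Slc30a1, a zinc exporter of the plasma membrane that is induced by zinc, fell by 4.87. Slc30a1 read 8.27, 8.28 and 8.47 at 6 h and 3.50, 3.55 and 3.36 at 72 h. Egr2, a growth factor-induced transcription factor, fell from 9.66, 10.02 and 10.07 to 6.33, 5.92 and 5.47. For Gpc3, Car3 and Egr2 the mean of all their probe sets gave smaller changes, of -2.62, -3.12 and -2.13. The others were Acta1 (-4.60), the lipase Abhd2 (-4.10), Mybl2 (-4.10), Slc7a5 (-4.06), the sphingosine phosphate lyase Sgpl1 (-4.00), Poteml2 (-3.89), Ttyh2 (-3.88) and Mthfd2 (-3.86).

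**Figure D1:**
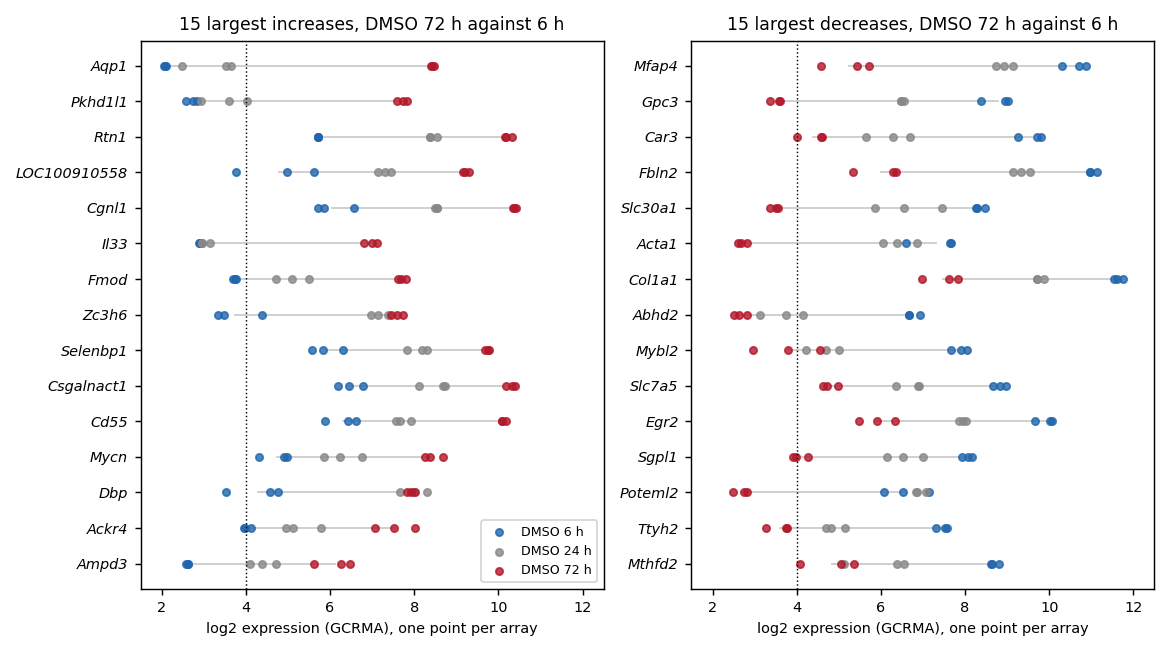
Log2 expression of the 15 genes with the largest increases (left) and the 15 with the largest decreases (right) in DMSO cells, with 1 point per array at 6 h (blue), 24 h (grey) and 72 h (red), and a grey line joining the means at 6 h and 72 h. The dotted line marks log2 4. Aqp1 sits near log2 2 at 6 h and above 8 at 72 h, while Mfap4 and Col1a1 run the other way; the 24 h mean lies between the end points for all but Dbp and Poteml2.

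Cell cycle genes fell as a body. Of the 46 tested genes of the G1/S transition and DNA replication, 43 fell and 1 rose (34 and 0 by 2-fold or more), with a median log2 change of -1.31. Over all genes tested the share that fell was 35.6% and the median was -0.03. Ccne1, the cyclin that drives entry into S phase, read 10.42, 10.45 and 10.66 at 6 h and 8.28, 8.39 and 7.90 at 72 h, a log2 change of -2.32 ± 0.12 (limma adjusted p = 6.8e-12). Mcm5, a subunit of the replicative helicase, fell from 9.88, 9.65 and 9.70 to 7.66, 7.67 and 7.10. No array at 72 h came near those at 6 h for either gene. Orc1 of the origin recognition complex fell by 2.27, the polymerase subunit Pole2 by 2.37 and the histone chaperone subunit Chaf1a by 2.26. The gene that rose was Rnaseh2a (0.80), and E2f1 (-0.31) and Slbp (-0.40) did not pass. The median of the list was -1.52 at 24 h, so these genes were already low then, and 28 of the 46 had their lowest mean at 24 h.

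Genes of G2 and mitosis took another course. Of 58 tested, 52 fell between 6 h and 72 h and none rose, 26 of them by 2-fold or more, with a median log2 change of -0.90. All 58 were lower at 24 h than at 6 h, with a median of -2.03. From 24 h to 72 h, 56 of the 58 rose again (background 17.2% of all genes higher) and 1 fell, with a median of 1.10. For 57 of them the mean at 24 h was the lowest of the 3 times. Mki67, the proliferation antigen Ki-67, read 11.55, 11.83 and 11.68 at 6 h, 9.88, 9.91 and 10.10 at 24 h, and 11.06, 11.15 and 10.77 at 72 h. It dipped on all arrays at 24 h and then rose by 1.03, with a net change of -0.69 ± 0.11 (adjusted p = 1.7e-05). Ccnb1, the mitotic cyclin B1, read 10.56, 10.94 and 11, then 8.28, 8.74 and 8.70, then 9.78, 9.98 and 9.24, a net change of -1.17 ± 0.20. Top2a, the topoisomerase that untangles replicated chromosomes, fell by 1.95 to 24 h and was 0.51 below its 6 h level at 72 h (adjusted p = 0.0075, but 0.060 without the third array at 72 h). All 3 genes read above log2 9 on every array at 72 h. Cdca8 (borealin, of the chromosomal passenger complex) fell by 1.63, Plk1 (a mitotic kinase) by 1.65 and Mad2l1 (a spindle checkpoint protein) by 1.75. The gene that fell further after 24 h was Mybl2, the B-Myb factor of late cell cycle transcription. It read 8.04, 7.67 and 7.91 at 6 h, 4.22, 5.01 and 4.70 at 24 h, and 3.80, 4.55 and 2.97 at 72 h. Its change was -4.10 with the probe set used and -2.54 with the mean of its probe sets.

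Regulators of the cycle moved in both directions. Cdkn1a, the p21 inhibitor, fell by 0.44 (adjusted p = 0.00026; -0.70 with the mean of its probe sets). Ccnd1, cyclin D1, rose by 0.66 ± 0.09, from 11.77, 11.55 and 11.69 to 12.41, 12.38 and 12.18. Myc rose by 0.50 ± 0.16 (adjusted p = 0.0089). Cdkn1b, the p27 inhibitor, rose by 0.38 on the probe set used, but its other probe set fell by 0.46, so no direction is given for the gene. Txnip, a thioredoxin-binding arrestin that restrains glucose uptake, rose from 10.79, 10.94 and 11.04 to 12.70, 12.80 and 12.54, a log2 change of 1.75 ± 0.07. Of 28 tested inhibitors and genes of cell cycle exit as a list, 10 rose and 9 fell, close to the background shares, with a median of -0.05. Cdkn1c did not reach the level needed for a test.

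Promoters of some G2 and mitosis genes and of some sterol genes, described next, are shown, to let their letters be seen. The motif counts below cover all tested members of a list with a promoter, whatever their change. They describe the lists and do not bear on why the genes changed here. The 250 bases before the gene start come from RefSeq on build GRCr8, 5′ to 3′ in the direction of the gene. Capitals mark CCAAT and the cell cycle element CHR (TTTGAA or TTCGAA), each searched on both strands.
Cdca8 (chr5:142483200-142483449, minus strand): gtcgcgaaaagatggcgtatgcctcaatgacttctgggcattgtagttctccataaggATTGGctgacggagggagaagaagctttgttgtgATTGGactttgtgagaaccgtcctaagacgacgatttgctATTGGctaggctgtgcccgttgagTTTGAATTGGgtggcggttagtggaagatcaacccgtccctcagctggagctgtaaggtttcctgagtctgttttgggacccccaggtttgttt
Plk1 (chr1:186147408-186147657, plus strand): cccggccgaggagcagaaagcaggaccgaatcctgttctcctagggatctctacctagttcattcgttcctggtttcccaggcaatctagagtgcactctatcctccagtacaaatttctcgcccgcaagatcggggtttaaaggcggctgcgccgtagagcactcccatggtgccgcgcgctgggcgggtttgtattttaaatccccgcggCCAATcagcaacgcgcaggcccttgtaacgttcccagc
Idi1 (chr17:66547525-66547774, minus strand): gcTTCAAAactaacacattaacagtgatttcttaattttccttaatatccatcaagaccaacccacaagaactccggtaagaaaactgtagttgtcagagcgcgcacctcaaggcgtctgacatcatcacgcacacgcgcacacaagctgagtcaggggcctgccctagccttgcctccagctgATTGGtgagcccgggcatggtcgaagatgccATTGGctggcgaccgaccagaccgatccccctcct
Mvk (chr12:47819504-47819753, minus strand): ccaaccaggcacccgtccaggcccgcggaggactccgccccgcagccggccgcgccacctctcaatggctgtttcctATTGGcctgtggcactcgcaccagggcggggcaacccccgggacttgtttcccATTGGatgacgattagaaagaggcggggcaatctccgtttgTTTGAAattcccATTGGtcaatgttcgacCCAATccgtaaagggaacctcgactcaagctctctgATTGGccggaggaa
Hsd17b7 (chr13:84722755-84723004, minus strand): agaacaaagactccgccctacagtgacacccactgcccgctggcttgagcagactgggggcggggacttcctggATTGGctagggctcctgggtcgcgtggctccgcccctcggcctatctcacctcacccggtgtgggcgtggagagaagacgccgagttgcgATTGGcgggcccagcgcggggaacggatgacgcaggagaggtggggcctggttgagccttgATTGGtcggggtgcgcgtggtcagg
In Cdca8 the CHR match shares its last base with a CCAAT match (read as ATTGG on the other strand). Of the 58 tested G2 and mitosis genes, 49 had a promoter in the table. CCAAT was found in 36 of these 49 (73.5%) and in 36.7% of the 7647 tested genes with a promoter (34.3% of all 27457 promoters). CHR was found in 26 of the 49 (53.1%), against 11.7% of tested genes and 17.3% of all promoters. Of the 41 G1/S promoters, 11 held TTTNNCGC (26.8%), a form of the site for E2F factors, against 7.74% of tested genes and 4.35% of all promoters. CCAAT was found in 22 of the 41 G1/S promoters (53.7%) and in 14 of 18 sterol gene promoters (77.8%). CHR was found in 2 of the 18 sterol gene promoters (11.1%), near its share of tested genes (11.7%). These 2 are Idi1 and Mvk, both printed here, whereas the printed Plk1 promoter held no CHR match. TCACNCCAC, a form of the sterol regulatory element, was found in 0 of the 18, against 0.955% of tested genes and 0.976% of all promoters. A match is a run of letters in this window and does not show that a factor binds there, nor does its lack show the opposite.

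Genes of cholesterol synthesis fell, and did so late. Of 22 tested genes of the pathway and its SREBP2 regulator, 16 fell and 1 rose, 11 of them by 2-fold or more, with a median log2 change of -1.16. At 24 h the median was 0.08, with 4 genes higher and 4 lower than at 6 h. For 14 of the 22 the mean at 24 h was the highest of the 3 times (2027 of all 9016 genes tested), and for none the lowest. Between 24 h and 72 h, 18 of the 22 fell (background 17.1% of all genes lower) and none rose. Idi1, which makes the allylic isoprenoid unit, read 13.03, 12.64 and 12.79 at 6 h and 9.91, 9.88 and 9.27 at 72 h, a log2 change of -3.14 ± 0.14 (limma adjusted p = 1.4e-12). Mvd, the decarboxylase that comes before it, held between 9.13 and 9.37 at 24 h and fell to 5.97, 6.24 and 4.82 at 72 h. Sqle, squalene epoxidase, a rate-limiting step, fell from 12.09, 11.58 and 11.81 to 9.62, 9.64 and 9.31. For these 3 genes every array at 72 h was below every array at 6 h and 24 h. Hsd17b7 (-2.60), Cyp51 (-2.04), Msmo1 (-1.57) and Nsdhl (-1.50), which act after lanosterol, fell as well, as did the early enzymes Acat2 (-2.01) and Mvk (-2.19; -1.40 with the mean of its probe sets). Insig1, the sterol-regulated anchor of the SREBP system, fell by 1.91. Pmvk, the kinase between Mvk and Mvd, was the one that rose (0.68). The SREBP2 gene itself, Srebf2 (-0.18), and its escort Scap (-0.09) did not pass.

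Fatty acid genes split by direction of the pathway. Of 18 tested genes of fatty acid synthesis and SREBP1, 10 fell and 4 rose, with a median of -0.57 (0.20 at 24 h). Those that fell included the core enzymes Acaca (-1.11), Fasn (-1.03) and Acly (-0.93), the NADPH source Me1 (-1.05), the glycerolipid enzymes Gpam (-2.88; -1.87 with the mean of its probe sets) and Lpin1 (-1.53), and Aacs, which activates acetoacetate (-2.76). Those that rose were Fads1 (0.89), Elovl1 (0.79), Insig2 (0.71) and Mid1ip1 (0.36). The fatty acid oxidation and PPAR list went up, with 18 of its 22 tested genes higher (5 of them by 2-fold or more), Acot2 alone lower (-0.34), and a median of 0.60. Without the third array at 6 h, Acot2 did not pass. The median was already 0.56 at 24 h, and 3 of the 22 rose between 24 h and 72 h. Angptl4, a PPAR target that blocks lipoprotein lipase, read 2.26, 2.23 and 2.24 at 6 h, 3.20, 2.66 and 3.09 at 24 h, and 5.83, 5.73 and 6.15 at 72 h. It was near the floor at the first 2 times, so the size of its change (3.66 ± 0.20) rests on the background model. Pdk4, which blocks pyruvate entry into the mitochondrion, read 6.20, 7.10 and 7.45 at 6 h and 8.79, 8.97 and 8.97 at 72 h (2.0, and 1.27 with the mean of its probe sets). The dehydrogenase Acadvl, for very long chains, rose by 1.11 ± 0.11, and the electron acceptor Etfdh by 0.90.

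Glycolysis and hypoxia genes fell in most cases. Of 34 tested, 22 fell and 8 rose, with a median of -0.45, against -0.06 at 24 h. Gapdh, often used as a constant gene, read 14.83, 14.87 and 15.01 at 6 h and 13.73, 13.70 and 13.71 at 72 h, a log2 change of -1.19 ± 0.07 (adjusted p = 4.0e-11). Slc2a1, the glucose transporter GLUT1, fell from 9.34, 9.38 and 9.50 to 8.19, 8.01 and 7.72. Both groups were apart for these genes, with narrow spread. Hk2 (hexokinase 2) fell from 5.63, 5.69 and 5.53 to 2.90, 2.87 and 2.88, at the floor. Smaller falls were seen for Pgk1 (-0.84), Eno1 (-0.84), Ldha (-0.47) and Tpi1 (-0.47). The muscle-type phosphofructokinase Pfkm (1.29) and glycogen synthase Gys1 (1.15) rose. Pdk1, a hypoxia-induced kinase, fell by 1.54 on the probe set used and rose by 0.41 on its other one.

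**Figure D2:**
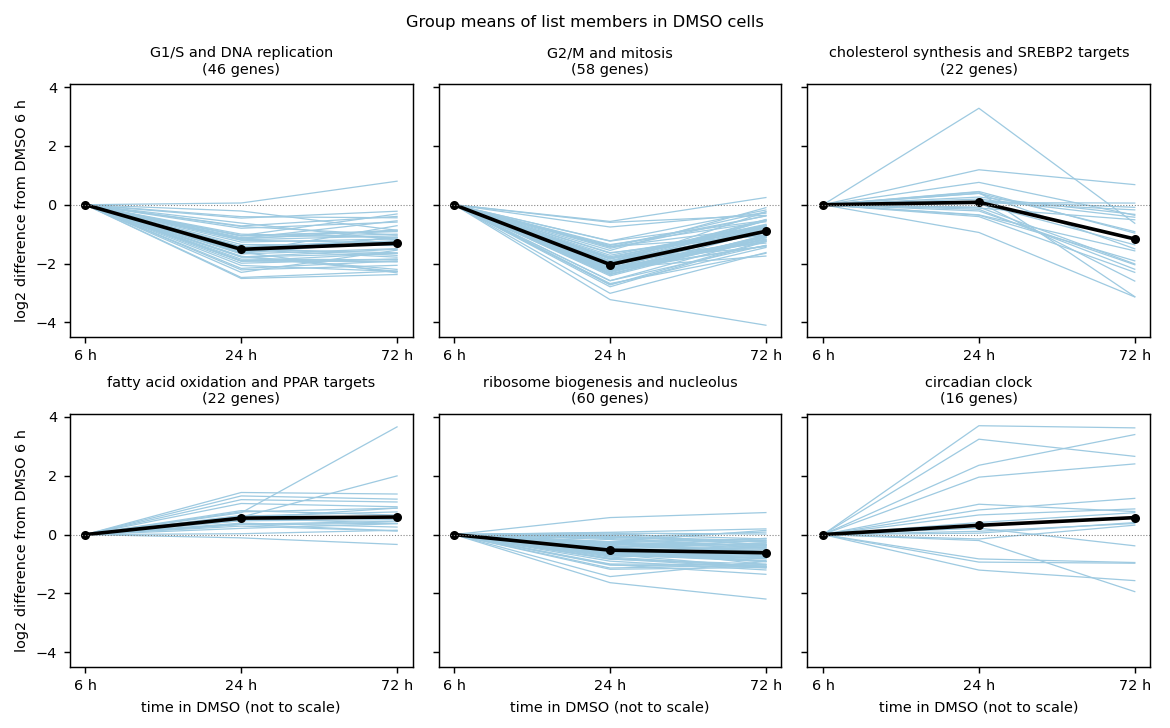
Log2 difference of the group mean from the DMSO 6 h mean for each tested member (blue lines) of 6 gene lists at 6, 24 and 72 h in DMSO (time not to scale), with the median as a black line. The G2 and mitosis median goes to -2.03 at 24 h and back to -0.90 at 72 h, whereas the cholesterol median is 0.08 at 24 h and -1.16 at 72 h.

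Genes that build the protein-making machinery fell, while the tested genes of the ribosome itself had a median near 0. Of 60 tested genes of ribosome biogenesis and the nucleolus, 50 fell and 1 rose (Nop53, 0.75), with a median log2 change of -0.62 and -0.53 already at 24 h. Rrp12, a ribosome maturation factor, read 8.99, 8.84 and 8.91 at 6 h and 6.68, 6.71 and 6.77 at 72 h, a change of -2.19 ± 0.12 (limma adjusted p = 1.7e-11). Bop1 (-1.14), Wdr12 (-1.12), Utp14a (-1.35) and Ddx52 (-1.20), which process or assemble ribosomal RNA, also fell. Of 77 cytosolic ribosomal protein genes in the list, 36 were not found among the probe sets with 1 symbol. Among the 39 tested, 12 rose and 1 fell, none by 2-fold, with a median of 0.07. The share that rose is near the background, and the 12 became 7 without the first array at 6 h, 7 without the second at 72 h and 6 without the third at 72 h. Of 19 cytosolic aminoacyl-tRNA synthetases, which charge tRNAs, 10 fell and none rose (median -0.53), among them Yars1 (-1.50) and Aars1 (-1.31). Of 13 growth factor cyclin and Myc genes, 7 fell and 4 rose. These included Odc1 (-1.48) and Srm (-1.23), which make polyamines, and Nme1 (-1.87), a nucleoside diphosphate kinase, which fell.

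Amino acid supply showed single large changes within a mixed list. Of 27 tested genes of the amino acid and ATF4 response, 13 fell and 7 rose (median -0.29). Slc7a5, the LAT1 transporter of large neutral amino acids, read 8.67, 8.84 and 8.98 at 6 h, 6.91, 6.36 and 6.88 at 24 h, and 4.71, 4.62 and 4.98 at 72 h. It fell in each step, by 2.11 and then 1.95. Mthfd2, a mitochondrial folate enzyme, fell from 8.64, 8.62 and 8.81 to 5.37, 5.05 and 4.08. Psph, which completes serine synthesis, fell by 1.80 and the pseudokinase Trib3 by 1.38. Nupr1, a stress-induced chromatin protein, rose by 2.16 ± 0.17.

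Protein quality control genes fell more often than they rose. Of 33 tested genes of the unfolded protein response of the endoplasmic reticulum, 21 fell and 2 rose, with a median of -0.40. Sdf2l1 (-1.99) and Dnajc3 (-1.55), which are cochaperones, Sel1l of the degradation machinery (-1.63) and the translocon genes Ssr1 (-1.18) and Sec61a1 (-1.09) fell by over 2-fold. Of 34 proteasome genes, 24 fell and 4 rose, with a median of -0.35. For the proteasome the fall came late, with 25 of 34 lower at 72 h than at 24 h and a median of -0.05 at 24 h. Psmd7 (-1.07), Psmd3 (-0.94) and Psmd14 (-0.90), subunits of its regulatory cap, fell. Of 20 heat shock chaperones, 9 fell and 3 rose, and Hspa4 rose by 1.41. Autophagy and lysosome genes were close to the background, with 16 of 48 higher and 14 lower. Of 68 oxidative phosphorylation genes, 18 rose and 15 fell (8 without the third array at 6 h), none by 2-fold. That list passed less often (48.5%) than all genes tested (67.5%), and its succinate dehydrogenase subunit Sdha rose by 0.88.

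Genes of the circadian clock, a feedback loop in which activators switch on their own repressors, moved in both directions. Of 16 tested, 10 rose and 5 fell, with a median of 0.58. Dbp, an output transcription factor, read 4.75, 3.53 and 4.58 at 6 h, 8.30, 8.0 and 7.67 at 24 h, and 7.82, 7.91 and 8.01 at 72 h, a net change of 3.63 ± 0.34 (limma adjusted p = 1.9e-08). The repressors Per2 and Per3 were at or near the floor at 6 h (3.62, 3.98 and 3.20 for Per2). Per2 read 5.97, 6.04 and 6.00 at 72 h, and Per3 6.50, 6.65 and 6.49. Their changes were 2.40 and 2.66, and 1.21 and 1.40 with the mean of their probe sets. Hlf, related to Dbp, rose by 3.40 (2.0 with the mean of its probe sets), Nr1d2 by 1.23 and Nr1d1 by 0.75. The activator genes Bmal1 (-1.57) and Clock (-0.97) fell, as did the repressor genes Cry1 (-0.95) and Bhlhe40 (-1.94). Of the 16 means, 11 at 24 h lay between those at 6 h and 72 h. The times 24 h and 72 h fall at the same point of a daily cycle and 6 h does not, so a daily rhythm and a lasting change between 6 h and 72 h cannot be told apart.

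Most mesenchymal genes tested fell and most junction genes tested rose. Of 14 tested mesenchymal genes, 11 fell and 1 rose, with a median log2 change of -0.62. Fn1 (fibronectin) read 12.93, 12.88 and 13.01 at 6 h and 11.33, 11.40 and 10.90 at 72 h, a change of -1.73 ± 0.12 (limma adjusted p = 4.0e-10). Tagln (transgelin), an actin-binding protein of contractile cells, fell from 13.80, 13.66 and 13.63 to 12.23, 12.36 and 11.75, nearly all of it after 24 h. S100a4 fell by 1.95, Acta2 (smooth muscle actin) by 1.25 and Vim (vimentin) by 0.39. Even so, Vim read 14.38 or higher on each of the 6 arrays. Col3a1 rose by 0.33, against the fall of Col1a1 and Col1a2 (-1.15). Of 40 genes of epithelial junctions and keratins on the array, 29 did not reach the level needed for a test. Of the 11 tested, 7 rose, 1 of them by 2-fold or more, and 1 fell, with a median of 0.40. The 7 became 5 without the first array at 6 h. Cgn (cingulin), a tight junction protein and the relative of Cgnl1, read 6.11, 6.27 and 5.98 at 6 h and 8.91, 9.09 and 8.89 at 72 h (2.84 ± 0.14). The adhesion molecule F11r rose by 0.90 and the scaffold Tjp1 (ZO-1) by 0.44. Krt8, a keratin of simple epithelia, was the one that fell (-0.92). Cdh1 (E-cadherin) did not reach the level needed for a test, so the rise of junction genes did not include it.

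Matrix genes went both ways, in shares near the background (31.9% higher and 35.6% lower). Of 30 tested collagens, laminins and matrix proteins, 12 rose and 11 fell. The 9 changes of 2-fold or more were all falls, whereas 8.80% of all genes rose and 9.52% fell by as much. The laminin chains Lama3 and Lamb3 fell together, Lamb3 from 10.04, 9.97 and 10.12 to 7.10, 7.24 and 6.73 and Lama3 by 3.25. Postn (periostin) fell by 2.97 and Spp1 (osteopontin) by 2.32. The basement membrane chains Lamb2 (0.83), Col4a5 (0.71), Lama5 (0.65) and Lamb1 (0.54) rose. Cd44, a hyaluronan receptor raised in injured tubules, fell from 8.25, 8.04 and 8.03 to 5.17, 4.93 and 3.83. Of 14 tested tubule injury markers, 10 fell and 4 rose; Havcr1 (KIM-1) did not reach the level needed for a test. Timp3, a metalloproteinase inhibitor, rose by 1.96. Among cytoskeletal targets of SRF and YAP, 12 rose and 13 fell of 34, close to the background shares. Of single members, Acta1 (-4.60) and Actn1 (-1.17) were lower, Tgfb1i1 (2.08) was higher and the YAP target Ccn2 was up by 0.29.

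In the TGF-beta and BMP pathway the members went different ways, also among the ligands and among the signal carriers. Of 31 tested, 16 rose, 8 of them by 2-fold or more, and 8 fell. The median change was 0.51. Among ligands, Bmp4 read 10.31, 10.19 and 9.98 at 6 h and 11.92, 11.92 and 11.95 at 72 h (1.77 ± 0.09; limma adjusted p = 4.6e-12). Inhbb (1.70), Tgfb2 (1.02), Bmp2 (0.83) and Tgfb3 (0.51) rose, Bmp6 fell (-0.60), and Tgfb1 did not pass (-0.35, adjusted p = 0.088). Of the receptors, Tgfbr1 (-0.52) and Bmpr1a (-0.27) fell. Among the signal carriers Smad3 rose by 1.43 (0.73 with the mean of its probe sets), and Smad2 (-0.58) and Smad4 (-0.41) fell. The BMP targets Id3 (1.40) and Id1 (1.29), the feedback inhibitor Smad7 (0.67) and the BMP antagonist Nog (1.59) rose. The latent TGF-beta binding proteins went both ways, with Ltbp4 up by 1.39 and Ltbp2 down by 3.04.

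Among other signalling lists, interferon genes were mostly higher. Of 23 interferon-stimulated genes tested, 14 rose and 3 fell (1 without the second array at 6 h), with a median of 0.54. Gbp2, a guanylate-binding protein, rose from 7.33, 7.30 and 6.76 to 9.24, 8.99 and 8.81. Parp14 (1.80) and Parp9 (1.35) rose with it, but Isg15 (0.32) and Mx2 (0.82) did not pass. Of 15 NF-kB and inflammatory genes tested, 5 rose and 5 fell, close to the background shares (31.9% higher and 35.6% lower). Among them the adhesion receptor Icam1 went up from 10.93, 10.77 and 10.77 to 12.75, 12.79 and 12.81 and Ptgs2 (cyclooxygenase 2) down by 1.24. The ERK feedback genes Dusp6 (-1.99) and Phlda1 (-3.24) fell, whereas the inhibitors Spry1 (2.28) and Spry2 (1.51) rose. Of 22 Notch and Wnt pathway genes, 12 rose and 5 fell (3 without the third array at 72 h), with a median of 0.38. The Wnt co-receptor Lrp5 rose by 0.98 and the receptor Fzd1 by 0.90, whereas the ligand Wnt4 fell by 2.60 and the Notch target Hey2 by 2.70. Another receptor, Fzd4, rose by 0.97 on the probe set used and fell by 1.30 on its other one. Of 23 secreted growth and angiogenic factors and their receptors, 13 rose and 6 fell (3 without the third array at 6 h or the third at 72 h), with the growth factor Vegfb up by 2.0 and the receptor Met down by 1.97. Of 33 immediate early genes, 12 rose and 10 fell, near the background shares. Of 11 proximal tubule transporters and enzymes tested, 3 rose and 2 fell. This list passed less often (45.5%) than all genes tested (67.5%). Dab2, an adaptor of endocytosis, rose from 10.04, 9.94 and 10.16 to 12.97, 12.99 and 12.96, and Ggt1, a brush border enzyme, fell from 5.71, 6.10 and 5.78 to 3.45, 3.60 and 3.44. The 2 that fell became 1 without the second array at 6 h, or without the second or the third at 72 h.

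Stress genes were more often lower than higher at 72 h. Of 26 tested targets of NRF2, the factor that answers oxidants, 14 fell and 5 rose. Hmox1 (heme oxygenase 1) read 7.03, 7.57 and 7.66 at 6 h and 4.40, 4.05 and 3.67 at 72 h, and Nqo1 fell from 12.98, 12.80 and 12.59 to 10.67, 10.65 and 10.81. Ephx1 (epoxide hydrolase 1) went the other way, from 8.05, 7.74 and 7.91 to 10.46, 10.34 and 10.32. Of 21 p53 targets, 12 fell and 4 rose, among them Mdm2 (-1.15) and Gadd45a (-1.25). Of 10 genes of metal handling, 7 fell and 1 rose (none without the first array at 72 h), led by Slc30a1, Mt1 (-2.15) and the transferrin receptor Tfrc (-1.57).

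**Figure D3:**
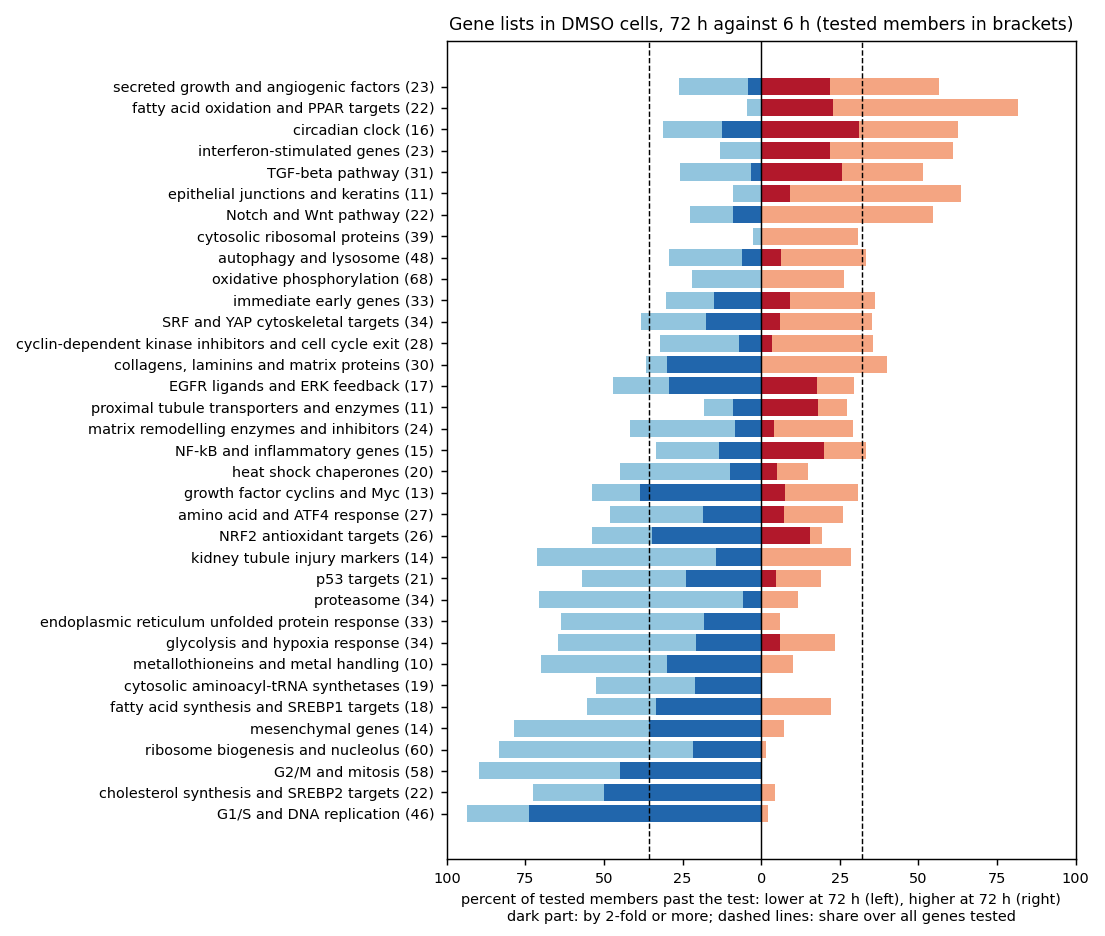
Percent of the tested members of each list (number in brackets) that were lower (blue, left) or higher (red, right) at 72 h than at 6 h in DMSO cells, with changes of 2-fold or more in the darker shade and the shares over all genes tested (35.6% lower, 31.9% higher) as dashed lines. Lists are in order of their median change. Of the 46 G1/S genes 43 were lower and of the 58 G2 and mitosis genes 52 were, while 18 of the 22 fatty acid oxidation genes were higher.

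Whether cells with aristolochic acid changed in the same way was tested as the difference between the changes over time, which share no array. Across the 9016 genes the change from 6 h to 72 h correlated between DMSO cells and aristolochic acid cells at r = 0.67, a description over genes that are not independent. In aristolochic acid cells 6348 genes passed between 6 h and 72 h (70.4%). In both, 4218 genes passed in the same direction and 465 in opposite directions. The difference between the changes passed the test for 3712 genes (41.2%), of which 2088 (23.2%) were higher with aristolochic acid and 1624 (18%) lower. For some groups the medians lay close to each other. Cholesterol genes had a median of -1.16 in DMSO and -1.30 with aristolochic acid, and the difference passed for 3 of 22. G1/S genes had medians of -1.31 and -1.43, and the difference passed for 15 of 46. For G2 and mitosis genes the medians were -0.90 and -1.62, and 34 of 58 were lower with aristolochic acid by the test of the difference, 5 higher. Ccnb1 changed by -1.17 in DMSO and by -3.12 with aristolochic acid (difference -1.96, limma adjusted p = 2.8e-05). The stress lists parted. Of 21 p53 targets, 17 had a higher change with aristolochic acid and none a lower one, and Cdkn1a changed by -0.44 in DMSO and 2.59 with it. Of 26 NRF2 targets, 17 were higher and 1 lower, and Hmox1 differed by 3.66 and Nqo1 by 2.71. Ribosomal protein genes differed the other way, 29 of 39 lower, with medians of 0.07 and -0.19. The rise of Il33 in DMSO (4.07) was not seen with aristolochic acid (-0.03; difference -4.10, adjusted p = 7.8e-11).

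**Figure D4:**
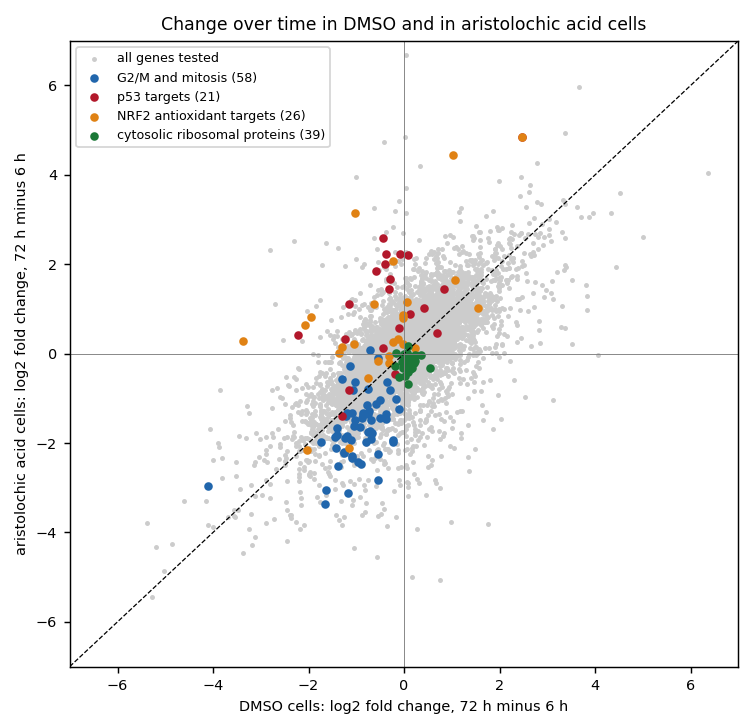
Log2 change from 6 h to 72 h in aristolochic acid cells (vertical) against that in DMSO cells (horizontal) for the 9016 genes tested (grey), with 4 lists in colour and the line of equal change dashed. Most p53 targets lie above the line, and most G2 and mitosis genes and most ribosomal protein genes below it, the last of these near the origin.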

How the data were processed

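Values were the log2 expression levels the authors deposited, 1 per probe set and array; per the submitters' processing notes they were made with GCRMA. Its version was not given in the sources used here, nor its settings, and scanner files were not used. Of 31099 probe sets, 20832 had 1 gene symbol in the platform annotation, 436 several and 9831 none. Among the 31099 were 57 controls, which were not set aside. Of those with 1 symbol, 20764 matched RefSeq names (GRCr8). The level of Gapdh comes from its 5′ control probe set, which also served in the check of RNA length. Each of 14218 genes took its probe set with the highest mean over the 18 arrays. The 9016 genes that reached log2 4 on 3 arrays or more were fitted in R 4.3.3 with limma 3.58.1: 6 group means over all arrays, empirical Bayes with an intensity trend, 12 residual and 7.27 prior degrees of freedom, Benjamini-Hochberg adjustment over all genes tested. The test was also run on simulated data for DMSO 72 h against 6 h, with 9016 genes and independent normal noise. There 67, 67 and 66 genes were changed by 0.5, 1 and 2 log2 units. Of these changes 67.2%, 92.5% and 100.0% were recovered, and 3.89% of calls were false. Far more genes passed in the data (67.5%), and such shares depend on how many genes change.

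The gene lists come from textbook knowledge. The members and lists were chosen with earlier results of these data known. Genes named are the 15 largest changes each way (groups not overlapping, higher mean at log2 6 or more), up to 5 passing members per list plus members needed to show a step, a fixed set of common genes, and the 6 largest differences each way from aristolochic acid cells. Alternatives tried were array centring, quantile normalization, other filters, fewer arrays in the fit, a replicate block, no intensity trend, the mean of probe sets, and leaving out arrays. In 80 named genes with several probe sets, 17 had one that moved the other way, mostly near the floor.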

Additional observations from a re-analysis of the deposited data

Results flagged for a closer look

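The change from 6 h to 72 h differed between aristolochic acid cells and DMSO cells for 3712 genes, by limma's test of the difference itself. The 6 largest differences each way, among genes with a group mean of log2 6 or more, are given as aristolochic acid change minus DMSO change. On the higher side, Pln, the phospholamban gene, differed by 6.64 (4.12 with the mean of its probe sets) and Slc51a, a bile acid and steroid transporter subunit, by 4.83. Both were at the floor in DMSO cells at 6 h and 72 h. Atf3, a stress-induced transcription factor, differed by 4.84, having fallen by 2.31 in DMSO. Depdc7 differed by 5.13 (3.39 with the mean of its probe sets) after a fall of 2.81 in DMSO. Pinlyp differed by 4.95 and Spetex2l2 by 5.14. On the lower side, Cfap299 (-5.82), the carbohydrate kinase Fggy (-5.56), the GDP-mannose dehydratase Gmds (-5.17), the glypican Gpc6 (-4.76), the trafficking factor Trappc9 (-4.20) and the autophagy enzyme Atg10 (-4.16) differed. Of these, Fggy, Cfap299 and Atg10 rose in DMSO, by 1.76, 0.75 and 3.12, while the changes of Gmds (0.16) and Trappc9 (0.28) in DMSO did not pass. Gpc6 rose by 0.98 in DMSO on the probe set used and did not pass with the mean of its 4 probe sets (0.29). Groups of 3 arrays are too small for a check of single outlying arrays.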

How the results depend on the processing

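Without the filter on low values, 5664 genes in place of 2879 counted as higher at 72 h (63.3% of calls against 47.3%), since genes near the floor entered the test. Lower genes numbered 3279 in place of 3207, so the gain was nearly all on the higher side. Whether the floor itself lay higher at 72 h was not tested. No other count of genes for the 4 comparisons moved by over 1.5 times under array centring, quantile normalization, a filter at log2 6, the compared groups alone, no intensity trend or the mean of probe sets, nor did any list count under centring or the replicate block. Direction turned for 3 named genes: Cdkn1b (-0.037) and Fzd4 (-0.16) with the mean of probe sets, and Slc51a (-0.0015 with quantile normalization), which had not passed in DMSO. Leaving out each array in turn gave 5591 to 5810 genes for 72 h against 6 h, 4814 to 5017 for 24 h against 6 h, 2458 to 2712 for 72 h against 24 h, and 3248 to 3686 for the difference from aristolochic acid cells. With the replicate block, 2899 genes were higher and 3222 lower. Same-numbered arrays deviated together at r = 0.08, 0.07 and 0.10, each array best with its own number, too little to treat them as paired; the block gave 15 cholesterol genes lower in place of 16 and 11 fatty acid synthesis genes in place of 10, moved 5 other list counts by 1 or 2 genes, and changed the call of no gene named by the rule. A level near the floor limits any fold change against it.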
